A study of Mus musculus with 9 samples.

Results

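Cathepsins are the proteases of the lysosome, and the RNA levels of 10 cathepsin genes other than that of cathepsin K are described here: Ctsa, Ctsb, Ctsc, Ctsd, Ctse, Ctsf, Ctsh, Ctsl, Ctss and Ctsz. They were found by gene name among the probes of 9 mouse 1-colour microarrays, where 13 of 55681 probes carried one of these names. Each gene was represented by its brightest probe, and all 10 were among the 18249 genes tested. All 13 probes were well above background on all 9 arrays.

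The arrays measured total RNA of peritoneal macrophages from male mice, sorted by flow cytometry for CD45, carried by all leukocytes, and for the macrophage antigen that Adgre1 encodes. Group Ctrl (3 arrays) had been kept alone in regular medium for 24 h. Group T (3 arrays) had been in co-culture with CT-26, a mouse colon carcinoma line, for 24 h in the lower chamber of a Transwell, a well divided by a porous membrane. Group M (3 arrays) holds migratory macrophages, taken from the upper chamber of such a Transwell shared with CT-26, with no duration given. The labels name no mouse strain, age or number of animals. One label field calls the cells of group T migratory, whereas titles, descriptions and protocol give that name to group M, and the groups follow the titles. Nothing in the labels tells whether the 3 arrays of a group stand for separate cultures or mice. The p-values therefore measure the spread between arrays, and that spread may be technical.

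The share of probes well above background ran from 60.5% to 78.6% over the arrays, with the 3 M arrays between 60.5% and 66.6%. M1 and M3 had the highest negative-control signals, 59.2 and 45.8 against 24.2 to 36.4 elsewhere, and the most variable replicate spots, with coefficients of variation of 19.7% and 26.6% against 5.63% to 13.1%. Ctrl and M were hybridised on one slide and T on another, so that in T minus Ctrl and M minus T the group and the slide cannot be told apart. The sort markers Ptprc, which encodes CD45, and Adgre1, which encodes the macrophage antigen, were well above background on all 9 arrays. Of 10 macrophage markers tested, 4 were higher and 0 lower in M than in Ctrl, against 12.2% and 11.1% of all genes tested. Adgre1 was higher by 2.86 on the log2 scale. The summed level of that marker list ran from 195 to 237 times the 75th percentile in Ctrl, from 157 to 216 in T and from 184 to 259 in M.

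Most cathepsins are made as inactive precursors, carried to the lysosome by the mannose 6-phosphate pathway and activated there at acid pH. Ctsb, Ctsc, Ctsf, Ctsh, Ctsl, Ctss and Ctsz encode cysteine proteases of the papain family, Ctsd and Ctse aspartic proteases and Ctsa a serine carboxypeptidase. In macrophages they break down ingested and cellular protein, cut the invariant chain and antigens for loading on MHC class II molecules and, once secreted, can cleave the extracellular matrix. Cystatins and stefins are tight-binding protein inhibitors of the cysteine cathepsins.

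Ctsh, Ctsc and Ctss were higher in migratory macrophages than in the co-cultured macrophages of the lower chamber, and Ctsh and Ctsc were also higher than in macrophages cultured alone. With the representing probes, Ctsh was the only one of the 10 genes called between T and Ctrl. A second, dimmer probe of Ctsa was also higher in T, as given below. No other cathepsin gene passed the test in any comparison with its representing probe. Differences were tested with limma on log2 levels, the log2 processed signal of a probe minus the 75th percentile of its array, with Benjamini-Hochberg adjustment over the 18249 genes and a threshold of 0.05 on the adjusted p. The SE of a difference comes from this fit, in which all 9 arrays share 1 estimate of a gene's spread. Since the 3 comparisons share samples, their values are given side by side and are not independent of each other.

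In T minus Ctrl, 1 of 10 cathepsin genes was higher and 0 were lower, against 17.6% and 27.2% of all genes tested (44.7% called in either direction). Their median difference was -0.03, beside -0.14 for all genes. In M minus Ctrl, 2 of 10 were higher and 0 lower, against 12.2% and 11.1% of all genes (23.4% in either direction), with medians of -0.03 and -0.09. In M minus T, 3 of 10 were higher and 0 lower, against 14.7% and 10.8% of all genes (25.5% in either direction), with medians of 0.12 and 0.11. The split of all genes depends on the scaling. It was 3209 higher and 4956 lower in T minus Ctrl here, 4032 and 3622 after quantile normalization, and 5129 and 2631 when arrays were scaled to their median, which moved the median of all genes from -0.14 to 0.29. In M minus Ctrl it was 2234 and 2029 here, 2830 and 1436 after quantile normalization and 3049 and 1046 with median scaling. In M minus T it was 2675 and 1973 here and 1589 and 1955 with median scaling.

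**Figure D1:**
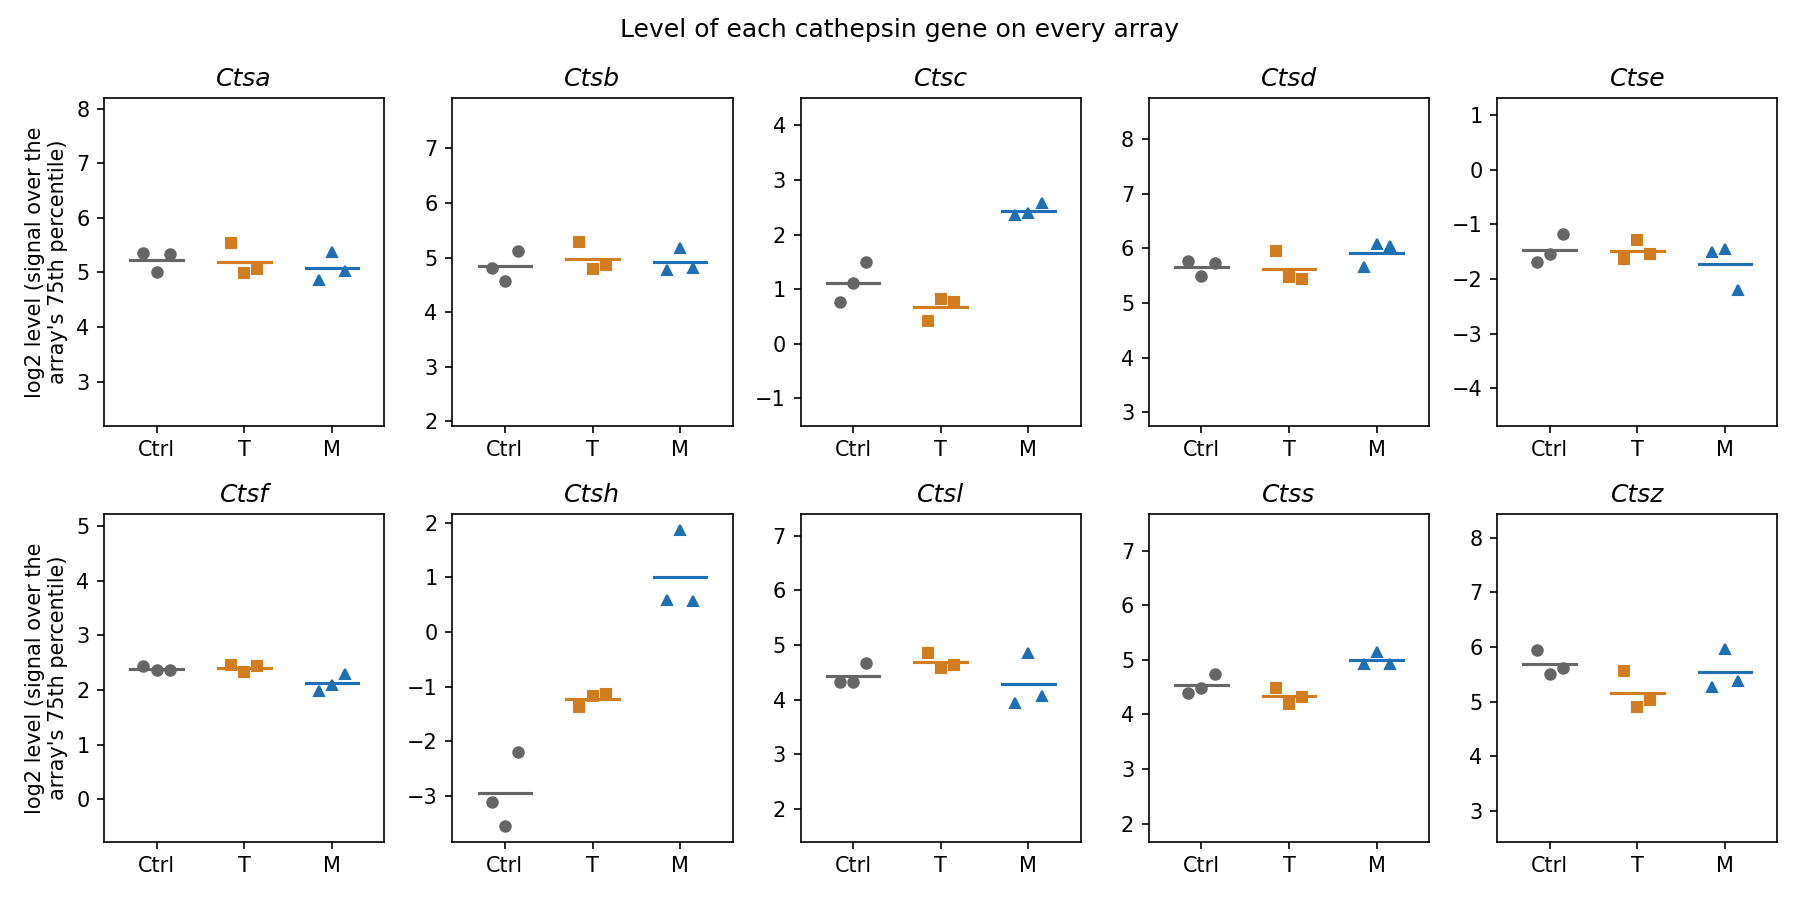
Level of each cathepsin gene on each of the 9 arrays, as log2 of the signal over the array's 75th percentile, by group (circles Ctrl, squares T, triangles M; the bar is the mean of 3 arrays). Each panel spans 6 log2 units. Ctsh rises from Ctrl through T to M, and the M arrays of Ctsc lie above all others.

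Ctsh encodes cathepsin H, an aminopeptidase of the lysosome. Its probe A_52_P51078 lies at chr9:89970828-89970887 on the plus strand (mm9). The log2 level was -3.10, -3.55 and -2.20 on the Ctrl arrays, -1.38, -1.17 and -1.14 on the T arrays, and 0.59, 1.86 and 0.57 on the M arrays. The 3 groups did not overlap, with all Ctrl arrays lowest and all M arrays highest, and M2 stood above M1 and M3. Ctsh was 15.5-fold higher in M than in Ctrl (log2 difference 3.96 ± 0.40 SE, n = 3 and 3, limma adjusted p = 8.11e-05). With Ctrl and M alone in the fit, both from one slide, the adjusted p was 0.000673. It was 4.71-fold higher in M than in T (2.24 ± 0.40, limma adjusted p = 0.00273) and 3.29-fold higher in T than in Ctrl (1.72 ± 0.40, limma adjusted p = 0.00702). The call in M minus T was lost with the authors' deposited value table (1.45, limma adjusted p = 0.203), whose column titled T2 equals no scanner file.

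The genes whose log2 levels ran most like that of Ctsh over the 9 arrays were Lyz2, encoding lysozyme (Pearson r = 0.994), Bst1, encoding an ADP-ribosyl cyclase at the cell surface (r = 0.992), and Epb4.1l1, encoding a protein of the membrane skeleton (r = 0.988). These correlations describe 9 points from 3 groups that share scaling and slides. Lyz2 had mean log2 levels of 3.92, 4.50 and 5.44 in Ctrl, T and M.

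Ctsc encodes cathepsin C, also called dipeptidyl peptidase I, which activates the serine proteases of leukocyte granules. Its brighter probe A_52_P195839 lies at chr7:95458436-95458495 on the plus strand (mm9). The log2 level was 0.76, 1.11 and 1.49 on the Ctrl arrays, 0.42, 0.83 and 0.76 on the T arrays, and 2.35, 2.39 and 2.58 on the M arrays. All M arrays lay above all others, while the highest T values lay within the range of Ctrl. Ctsc was 2.49-fold higher in M than in Ctrl (1.32 ± 0.21 SE, n = 3 and 3, limma adjusted p = 0.00222) and 3.41-fold higher in M than in T (1.77 ± 0.21, limma adjusted p = 0.000255). Within the slide that holds Ctrl and M, the adjusted p of the first was 0.0096. T minus Ctrl was -0.45 ± 0.21 (95% interval -0.93 to 0.03, limma adjusted p = 0.111), which did not pass. Without Ctrl1 that difference was -0.63 and passed (limma adjusted p = 0.0445). With M1 and M3, the arrays of highest background, both left out, M minus Ctrl was 1.27, close to the 1.32 above. M2 was then the only M array and was assumed to vary like the arrays of Ctrl and T, and the adjusted p was 0.0836. With the authors' deposited value table neither call of Ctsc was kept (1.32, limma adjusted p = 0.0707 against Ctrl, and 1.27, limma adjusted p = 0.103 against T).

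A second, dimmer Ctsc probe was designed on a transcript of its own and lies upstream of the first on the same strand, at chr7:95435428-95435487 (mm9). Its 60 bases are shown because they measure another stretch of the gene.
Ctsc second probe: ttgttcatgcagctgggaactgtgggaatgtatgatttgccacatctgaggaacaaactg
Its log2 level was -3.62, -3.60 and -3.43 in Ctrl, -3.30, -3.40 and -3.11 in T, and -3.13, -2.01 and -2.20 in M. M2 and M3 lay above all other arrays, while M1 lay among the T arrays and above Ctrl. In the fit over all 39944 probes tested, M minus Ctrl was 1.10 ± 0.27 SE (limma adjusted p = 0.0256) and M minus T 0.82 ± 0.27 (limma adjusted p = 0.0542). Both probes were thus higher in M than in Ctrl, and the dimmer one missed the threshold against T.

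The genes with levels most like Ctsc over the 9 arrays were Cyria (r = 0.992), Bcas1 (r = 0.991) and Marveld1 (r = 0.991). Of 9 tested serine proteases of leukocyte granules, most of which cathepsin C activates, 0 were higher and 2 lower in M than in Ctrl (Gzmm, encoding granzyme M, by -0.77, and Tpsb2, encoding a mast cell tryptase, by -0.71). In T, 2 of the 9 were higher and 5 lower than in Ctrl, with Elane, encoding neutrophil elastase, at -2.56 and Tpsb2 at 1.54. Some of the 9 lay near background. Gzma and Ctsg were each above it on 1 of 3 M arrays and Gzmc on none. In T, Ctsg and Gzmc were each above it on 1 array and Gzma on none. The Ctrl arrays of Elane were uneven, with log2 levels of -1.44, -2.29 and -4.18. Of all genes, 12.2% were higher and 11.1% lower in M minus Ctrl, and 17.6% and 27.2% in T minus Ctrl.

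Ctss encodes cathepsin S, an elastase active also at neutral pH, which cuts the invariant chain in antigen-presenting cells. Its probe A_55_P2024888 lies at chr3:95360245-95360304 on the plus strand (mm9). The log2 level was 4.39, 4.48 and 4.74 in Ctrl, 4.48, 4.19 and 4.32 in T, and 4.92, 5.14 and 4.92 in M. The M arrays lay above all others, and Ctrl and T overlapped. Ctss was 1.58-fold higher in M than in T (0.66 ± 0.17 SE, n = 3 and 3, limma adjusted p = 0.0179). M minus Ctrl was 0.46 ± 0.17 (95% interval 0.08 to 0.84 before adjustment, limma adjusted p = 0.0736) and did not pass, although the arrays did not overlap. T minus Ctrl was -0.20 ± 0.17 (limma adjusted p = 0.355).

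The call of Ctss in M minus T did not hold with median scaling (0.54, limma adjusted p = 0.119), with another background correction, normexp (0.37, limma adjusted p = 0.162), or with the authors' deposited value table (0.49, limma adjusted p = 0.143). It was also lost without T2 (0.59, limma adjusted p = 0.0838), T3 (0.66, limma adjusted p = 0.0686) or M2 (0.59, limma adjusted p = 0.0592), while the difference stayed between 0.59 and 0.73 whichever M or T array was left out. With M2 as the only M array it was 0.80, with an adjusted p of 0.0825 that takes its spread from Ctrl and T. M minus Ctrl, in contrast, passed after quantile normalization (0.65, limma adjusted p = 0.0121), with median scaling (0.76, limma adjusted p = 0.0329) and without Ctrl3 (0.56, limma adjusted p = 0.0195). Over the 9 arrays the levels of Pmvk, an enzyme of the mevalonate pathway (r = 0.982), F630110N24Rik (r = 0.981) and Gm4022 (r = 0.970) ran most like that of Ctss.

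**Figure D2:**
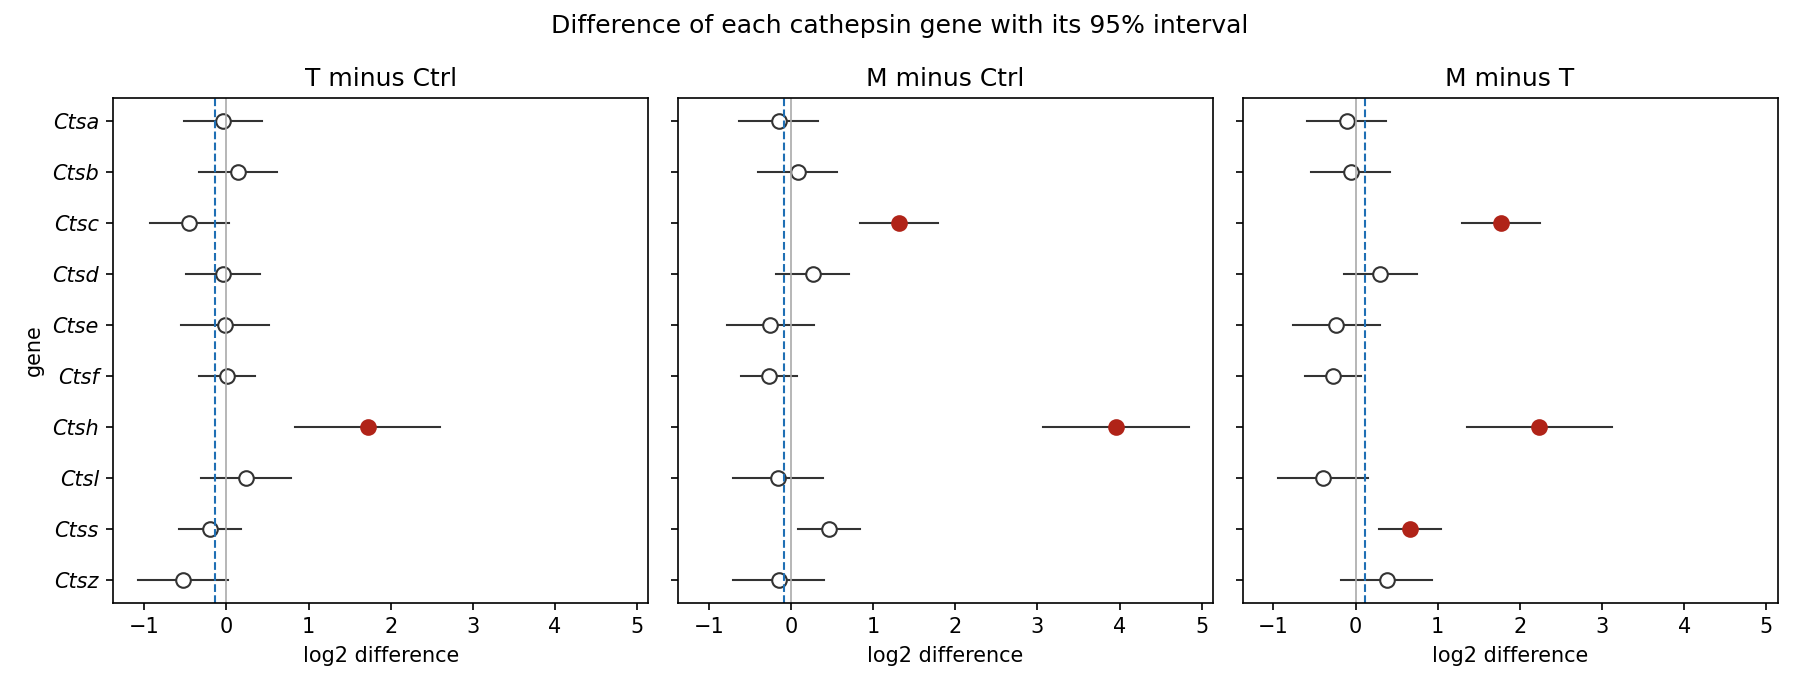
Log2 difference of each cathepsin gene in the 3 comparisons, with its unadjusted 95% interval from limma. Filled points passed an adjusted p of 0.05, open points did not, and the dashed line is the median of all 18249 genes. Ctsh stands apart in all 3 panels, Ctsc in both that hold M, and Ctss is filled in M minus T.

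The promoters of Ctsc and Ctss, both higher in M than in T, are shown so that their upstream sequences can be compared, as given by RefSeq on GRCm38.p6, from 250 bases before the start site to the base before it. The RefSeq table matched 7 of the 10 genes, with 8 start sites. Ctsb, Ctse and Ctsh, the gene with the largest difference, are not among them. Capitals mark motif matches. In Ctsc (chr7:88277835-88278084, plus strand) they mark the reverse complement of GAGGAAGT, a motif of the macrophage factor PU.1, at -151 to -144. In Ctss (chr3:95526536-95526785, plus strand) they mark the core of interferon response elements, searched as GAAA repeated after any 2 bases, at -21 to -12.
Ctsc: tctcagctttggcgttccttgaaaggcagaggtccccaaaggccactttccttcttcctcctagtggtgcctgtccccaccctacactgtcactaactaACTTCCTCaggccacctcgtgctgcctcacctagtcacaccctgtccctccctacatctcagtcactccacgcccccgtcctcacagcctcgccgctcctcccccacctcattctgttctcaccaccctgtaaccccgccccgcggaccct
Ctss: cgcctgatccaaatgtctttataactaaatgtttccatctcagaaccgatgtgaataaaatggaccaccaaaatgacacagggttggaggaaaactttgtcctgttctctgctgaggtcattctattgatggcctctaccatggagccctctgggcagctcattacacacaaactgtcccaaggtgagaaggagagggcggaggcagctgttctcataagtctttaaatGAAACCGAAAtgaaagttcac
The PU.1 motif, searched on both strands, was in 2.44% of all 32851 promoters in the table, and the interferon motif in 2.98%. Each was found in 1 of the 7 cathepsin genes. TGANTCA, the AP-1 motif, was in none of their windows and in 6.75% of all promoters. A match is a description of these letters and not a measured binding site.

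Among the genes of MHC class II antigen processing, in which cathepsins S and L act, 5 of 12 were higher and 0 lower in M than in Ctrl. The shares of all genes were 12.2% and 11.1%. H2-DMb2 and H2-DMa, encoding chains of the peptide-exchange factor H2-DM, were higher by 2.87 (limma adjusted p = 5.96e-06) and 1.26 (limma adjusted p = 0.000401). H2-Eb1, a class II chain, was higher by 2.56 (limma adjusted p = 2.87e-05), and H2-Aa, another, by 3.58 (limma adjusted p = 0.000204), with 2 of 3 Ctrl arrays above background. H2-DMb1 was higher by 2.42 (limma adjusted p = 0.00269). The other 7 were not called in M minus Ctrl. Ifi30 stood at -0.69, Ciita at -0.53, H2-Ob at -0.52 and H2-Ab1, a class II chain, at -0.17. Lgmn stood at -0.12, H2-Oa at -0.08 and Cd74 at 0.05. In M minus T, 6 of 12 were higher and 0 lower, against 14.7% and 10.8% of all genes. In T minus Ctrl, 2 were higher and 1 lower, against 17.6% and 27.2%. The log2 level of Cd74, which encodes the invariant chain, was 5.03, 4.80 and 5.13 in Ctrl, 5.46, 4.94 and 5.14 in T, and 4.81, 5.27 and 5.05 in M, and the groups overlapped.

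Markers of other cells that express these cathepsins moved with the M group in part. The shares of all genes were 12.2% higher and 11.1% lower in M minus Ctrl, 17.6% and 27.2% in T minus Ctrl, and 14.7% and 10.8% in M minus T. Of 8 granulocyte markers tested, 3 were higher and 0 lower in M than in Ctrl: S100a8 by 4.97, S100a9 by 1.58 and Mmp8 by 1.94. Their summed level was 0.556 to 1.03 times the 75th percentile in Ctrl, 0.885 to 1.11 in T and 2.87 to 2.93 in M. Ly6g, Ltf and Retnlg, also granulocyte genes, were not above background on all 3 arrays of any group. The neutrophil genes Mpo and Elane stood at -0.03 and -1.25 in M minus Ctrl and at 0.81 and 1.32 in M minus T, none of them called. Of 5 dendritic cell markers, 1 was higher (Itgax, at least 5.88-fold, not above background on any Ctrl array), and their summed level was 0.619 to 1.28 in Ctrl and 0.576 to 0.726 in M. Of 5 B cell markers, 0 were higher in M than in Ctrl, and Ms4a1 was not above background on all 3 arrays of any group. In T minus Ctrl, where Ctsh was higher, 2 of 7 carcinoma epithelium markers were higher (Krt19 by 3.63 and Vil1 by 0.84) and 2 were lower, with a summed level of 1.39 to 2.32 in Ctrl, 1.63 to 1.88 in T and 1.34 to 1.72 in M. Of 8 granulocyte markers, 1 was higher in T than in Ctrl (S100a8, by 3.06) and 4 were lower. Of 4 mast cell markers, 2 were higher (Gata2 by 2.36 and Tpsb2 by 1.54) and 2 lower, with a summed level of 0.192 to 0.280 in Ctrl and 0.512 to 0.565 in T. Of 5 dendritic cell markers, 1 was higher (Itgax, at least 4.38-fold) and 2 were lower. The T and NK cell markers had 1 of 8 higher and 5 lower, the B cell markers 0 of 5 and 2, and the mesothelial and fibroblast markers 0 of 5 and 2. In M minus T, 4 of 8 granulocyte markers were higher and 0 lower. These were Mmp8 (2.96), S100a8 (1.91), Ngp (1.07) and S100a9 (0.84). T and NK cell markers had 2 of 8 higher and 0 lower there, B cell markers 1 of 5 and 2, and carcinoma markers 1 of 7 and 1. Mast cell markers had 1 of 4 higher and 2 lower, and the dendritic and the mesothelial and fibroblast lists 0 of 5 and 0. The part of such cells in the values of Ctsh, Ctsc and Ctss was not tested. In bulk RNA, a change in the number of cells that express a gene and a change in RNA per cell cannot be told apart.

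The other cysteine cathepsins did not pass in any comparison. Ctsb encodes cathepsin B, an abundant endopeptidase that also acts as a dipeptidyl carboxypeptidase. Its log2 level was 4.82, 4.56 and 5.13 in Ctrl, 5.28, 4.79 and 4.86 in T, and 4.77, 5.17 and 4.81 in M, with all groups overlapping. M minus Ctrl was 0.08 ± 0.21 SE (95% interval -0.40 to 0.56), M minus T -0.06 ± 0.21 and T minus Ctrl 0.14 ± 0.21. After quantile normalization T minus Ctrl was 0.37 and passed (limma adjusted p = 0.0449).

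Ctsl encodes cathepsin L, an endopeptidase of the lysosome. Its log2 level was 4.32, 4.32 and 4.67 in Ctrl, 4.85, 4.57 and 4.63 in T, and 3.94, 4.85 and 4.06 in M. M1 and M3 were the lowest of the 9 arrays and M2 the highest. M minus T was -0.40 ± 0.25 SE (95% interval -0.95 to 0.15, limma adjusted p = 0.269), and without M2 it was -0.68 and passed (limma adjusted p = 0.0387). M1 and M3 are the arrays of highest background.

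Ctsz encodes cathepsin Z, also called X, a carboxypeptidase that binds integrins. Its log2 level was 5.95, 5.50 and 5.61 in Ctrl, 5.56, 4.90 and 5.03 in T, and 5.27, 5.96 and 5.38 in M. T2 and T3 were the lowest arrays, and T1 lay among the Ctrl arrays. T minus Ctrl was -0.53 ± 0.25 SE (95% interval -1.08 to 0.02, limma adjusted p = 0.108). With the replicate number as a block and only T and Ctrl in the fit it passed (-0.53, limma adjusted p = 0.0359), as it did without T1 (-0.73, limma adjusted p = 0.0463). M minus T was 0.38 ± 0.25, which passed only after quantile normalization among the settings run (0.37, limma adjusted p = 0.049).

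Ctsf encodes cathepsin F, which also cuts the invariant chain in macrophages. Its log2 level was 2.44, 2.37 and 2.37 in Ctrl, 2.45, 2.32 and 2.43 in T, and 1.99, 2.09 and 2.29 in M. All 3 M arrays lay below the other 6. The differences were small, -0.27 ± 0.15 SE against Ctrl (limma adjusted p = 0.209) and -0.28 ± 0.15 against T (limma adjusted p = 0.217), and did not pass. The arrays of 4 cathepsin genes (Ctsc, Ctsf, Ctsh and Ctss) did not overlap between M and Ctrl, and those of the same 4 did not overlap between M and T, against 36.2% and 48.5% of all genes. Between T and Ctrl only Ctsh did not overlap, against 53.6% of all genes. These counts use the representing probes.

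Ctsd encodes cathepsin D, the main aspartic endopeptidase of the lysosome. The log2 level of its brighter probe was 5.76, 5.49 and 5.73 in Ctrl, 5.95, 5.48 and 5.43 in T, and 5.66, 6.08 and 6.04 in M. M2 and M3 were the highest arrays and M1 lay among Ctrl. M minus Ctrl was 0.26 ± 0.20 SE (95% interval -0.19 to 0.71, limma adjusted p = 0.346), and after quantile normalization 0.51, which passed (limma adjusted p = 0.0197). A second probe, whose 60 bases span 1659 bases of the genome (chr7:149566847-149568505, minus strand, mm9) and so cross at least 1 intron, is shown because it reads spliced RNA.
Ctsd second probe: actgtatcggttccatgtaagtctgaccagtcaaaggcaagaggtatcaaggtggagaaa
Its log2 level was 4.48, 4.24 and 4.63 in Ctrl, 4.66, 4.42 and 4.59 in T, and 4.78, 5.15 and 5.05 in M. All M arrays lay above all others. M minus Ctrl was 0.55 ± 0.18 SE in the fit over all probes (limma adjusted p = 0.0612), with the same sign as the brighter probe and short of the threshold.

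Ctse encodes cathepsin E, an aspartic protease found mainly outside the lysosome. Its log2 level was -1.69, -1.54 and -1.17 in Ctrl, -1.63, -1.28 and -1.55 in T, and -1.51, -1.44 and -2.20 in M. The groups overlapped, with M3 lowest. M minus Ctrl was -0.25 ± 0.24 SE (95% interval -0.78 to 0.28) and T minus Ctrl -0.02 ± 0.24.

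Ctsa encodes cathepsin A, or protective protein, which keeps the sialidase Neu1 and the lysosomal β-galactosidase stable. Its 2 probes lie on the same transcript record and gave different results. The brighter, at chr2:164665023-164665082 on the plus strand (mm9), had a log2 level of 5.36, 5.0 and 5.34 in Ctrl, 5.54, 4.99 and 5.06 in T, and 4.86, 5.37 and 5.03 in M. These groups overlapped, and T minus Ctrl was -0.04 ± 0.21 SE (95% interval -0.52 to 0.44). The dimmer, at chr2:164666433-164666492 on the same strand, had -0.96, -1.03 and -0.35 in Ctrl, 0.52, 0.74 and 0.54 in T, and -1.21, -0.74 and -1.02 in M. With this probe all T arrays lay above all others.

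In the fit over all probes, the dimmer Ctsa probe was higher in T than in Ctrl by 1.38 ± 0.22 SE (limma adjusted p = 0.00145) and lower in M than in T by -1.59 ± 0.22 (limma adjusted p = 0.000833), while M minus Ctrl was -0.21 ± 0.22. The mean of both probes was higher in T than in Ctrl (0.67, limma adjusted p = 0.0172), against the sign of the brighter probe alone. The GRCm38 annotation places Neurl2 and Pltp over Ctsa. Neurl2, with 3.08, 3.07 and 3.57 in Ctrl and 3.89, 3.66 and 3.84 in T, was higher in T by 0.56 ± 0.19 (limma adjusted p = 0.0331). Pltp, encoding phospholipid transfer protein, differed by 0.07 ± 0.21 (limma adjusted p = 0.811). These neighbours were chosen after their values were seen, and their part in the signal of the dimmer probe was not tested. The direction for Ctsa in T is therefore uncertain. The annotation also has Fdft1 over Ctsb, the pseudogene Hmgb1-ps5 over Ctss and Nelfcd over Ctsz.

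**Figure D3:**
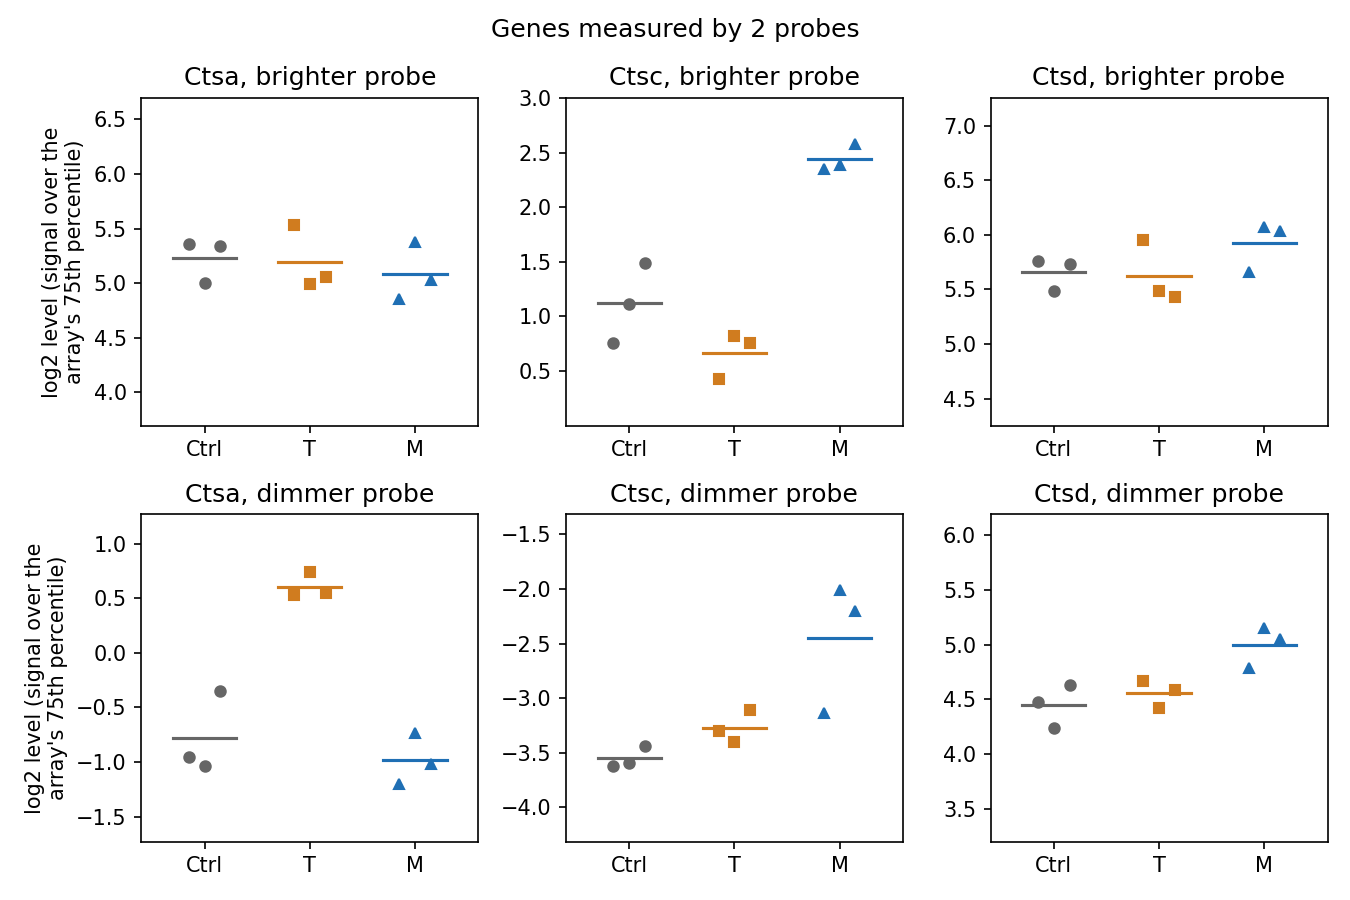
Log2 levels on each array for the 3 genes with 2 probes, the brighter above and the dimmer below (circles Ctrl, squares T, triangles M; bars are means of 3 arrays). Each panel spans 3 log2 units. The T arrays of the dimmer Ctsa probe stand apart, and both probes of Ctsc and of Ctsd have their highest mean in M.

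Of 7 other cathepsin-family genes tested, Ctsk, which encodes cathepsin K, exceeded its Ctrl level in M by at least 772-fold, with no Ctrl array above background, and was 8.87 higher on the log2 scale in M than in T (limma adjusted p = 9.71e-08), where 2 of 3 arrays were above background. No difference of the 10 genes above reached that size. Over the 7, 1 was higher and 2 were lower in M minus Ctrl, against 12.2% and 11.1% of all genes. In M minus T these were 1 and 1, against 14.7% and 10.8%, and in T minus Ctrl 2 and 3, against 17.6% and 27.2%. Tinagl1, an inactive relative of the cysteine cathepsins, was lower in M than in Ctrl by -1.01 (limma adjusted p = 0.00371).

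In M minus Ctrl, 9 of 22 tested genes listed as cathepsin inhibitors were higher and 2 lower, against 12.2% and 11.1% of all genes. In M minus T, 8 were higher and 0 lower, against 14.7% and 10.8%. In T minus Ctrl, 8 were higher and 6 lower, against 17.6% and 27.2%. The higher genes in both comparisons with Ctrl include Stfa1, Ctla2a and Serpina3g, with no Ctrl array above background. Serpina3g was not above background on any M array either, so its call in M minus Ctrl sets 2 groups at background against each other. Hrg was the lowest of the 22 in T minus Ctrl, at -2.13, and was also lower in M minus Ctrl, by -1.57. Stfa2, Stfa2l1 and Stfa3 encode stefins, inhibitors inside the cell. They were higher in M than in Ctrl by 3.44 (limma adjusted p = 1.9e-06), 3.37 (limma adjusted p = 1.52e-06) and 3.16 (limma adjusted p = 4.54e-06), and in T than in Ctrl by 0.91, 2.69 and 2.0. The stefin A genes lie in a cluster of near-identical copies, so their probes may share signal. Cst7, encoding cystatin F, an inhibitor that acts on cathepsin C within lysosomes, had a log2 level of -3.23, -2.84 and -2.70 in Ctrl, -2.98, -2.88 and -2.87 in T, and -0.46, -0.30 and -0.78 in M. Its M arrays lay above all others, and it was higher by 2.41 against Ctrl (limma adjusted p = 1.7e-05) and by 2.39 against T (limma adjusted p = 2.09e-05). Ctla2a, encoding a propeptide-like inhibitor of cathepsin L, exceeded its Ctrl level by at least 3.54-fold in M and by at least 3.00-fold in T, with no Ctrl array above background. The broad inhibitors Cst3, encoding cystatin C, and Cstb, encoding cystatin B, had overlapping groups, with log2 levels of 5.51 to 6.17 and 4.91 to 5.59 over the 9 arrays.

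Of 25 genes of cathepsin processing and sorting, 5 were higher and 1 lower in M than in Ctrl, against 12.2% and 11.1% of all genes. The lower gene, Tmem106b, had the largest difference of the list, -1.63 (limma adjusted p = 0.0482). Its log2 level was 5.90, 5.16 and 3.57 in Ctrl and 3.06, 3.63 and 3.06 in M. Gnptg, encoding a subunit of the enzyme that starts the mannose 6-phosphate tag, was higher by 0.87 (limma adjusted p = 0.0142), and Igf2r, encoding a mannose 6-phosphate receptor, by 0.57 (limma adjusted p = 0.0257). Neu1, the sialidase held by cathepsin A, was higher by 0.69 (limma adjusted p = 0.033). In M minus T, 4 were higher and 1 lower, against 14.7% and 10.8% of all genes. In T minus Ctrl, 2 were higher and 1 lower, against 17.6% and 27.2%. Psap, encoding a sphingolipid activator precursor that cathepsin D cuts, was higher in T by 0.68 (limma adjusted p = 0.0255). Lrp1, a scavenger receptor, was higher by 0.76 (limma adjusted p = 0.00683).

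**Figure D4:**
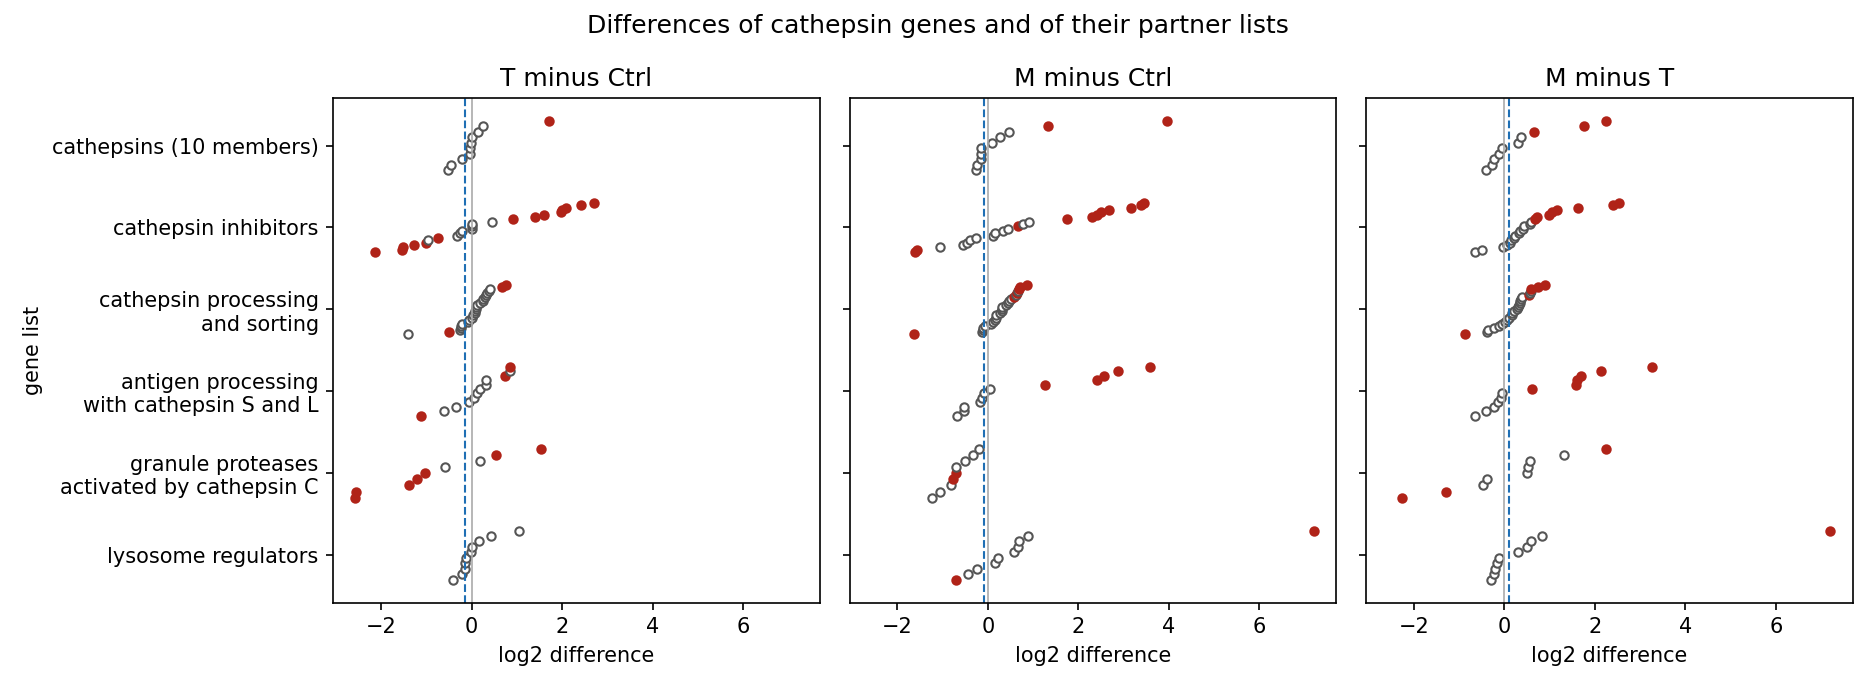
Log2 differences of the 10 cathepsin genes and of the tested genes of 5 partner lists in the 3 comparisons, 1 point per gene and sorted within each list. Filled points passed an adjusted p of 0.05 (limma) and the dashed line is the median of all genes. Most cathepsin points lie near that line. In M minus Ctrl the highest points are Ctsh at 3.96, Stfa2 at 3.44 among inhibitors, H2-Aa at 3.58 among antigen-processing genes and Tfec at 7.21 among lysosome regulators, whose probe was not above background in Ctrl.

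TFEB, TFE3 and their relatives switch on many lysosomal genes through the E-box CACGTG, often as CACGTGA. Of 10 lysosome regulators tested, 1 was higher and 1 lower in M than in Ctrl, against 12.2% and 11.1% of all genes. In T minus Ctrl 0 passed, against 44.7% of all genes in either direction. The log2 level of Tfeb was 1.53, 1.42 and 1.81 in Ctrl, 1.15, 1.10 and 1.27 in T, and 0.73, 1.10 and 0.81 in M. All M arrays lay below Ctrl, by -0.70 (limma adjusted p = 0.0212). Tfec, a relative expressed in macrophages, was at least 34.8-fold higher in M than in Ctrl and at least 35.2-fold higher than in T, with no Ctrl or T array above background.

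The E-box was found in the windows of 4 of the 7 cathepsin genes (Ctsa, Ctsd, Ctsf and Ctsl) and in 6.02% of all promoters, and CACGTGA, which contains it, in 2 genes (Ctsa and Ctsd) and in 3.13% of all promoters, both strands searched. The Ctsd promoter is shown because it holds the most matches, beginning at -245 and, on both strands with overlap, at -99 and -98 (chr7:142387828-142388077, minus strand, GRCm38.p6, RefSeq). Capitals mark them.
Ctsd: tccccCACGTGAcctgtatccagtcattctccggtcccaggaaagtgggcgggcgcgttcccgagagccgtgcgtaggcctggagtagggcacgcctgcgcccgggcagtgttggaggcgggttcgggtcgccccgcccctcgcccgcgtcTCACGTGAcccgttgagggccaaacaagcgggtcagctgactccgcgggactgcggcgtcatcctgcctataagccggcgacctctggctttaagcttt
None of Ctsa, Ctsd, Ctsf and Ctsl passed the test in any comparison with its representing probe. The windows without CACGTG were those of Ctsc and Ctss, which passed, and of Ctsz, which did not. Whether the motif bears on these levels was not tested. Ctsh, which passed in all 3 comparisons, had no window to search.

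**Figure D5:**
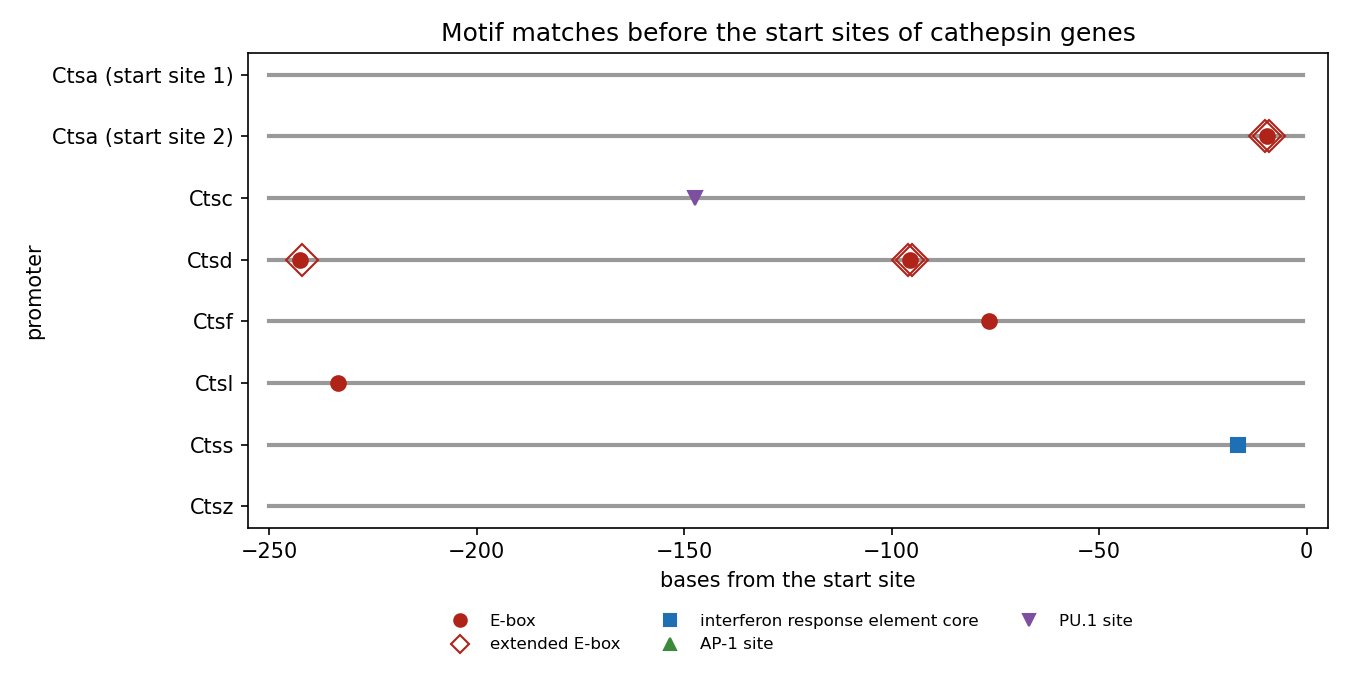
Positions of motif matches on either strand in the 250 bases before the start sites of 7 cathepsin genes, in bases from the start site (grey line, window searched). E-box matches lie in 4 genes, and the single matches of the PU.1 and interferon motifs lie in Ctsc and Ctss. The AP-1 motif has no match.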

How the data were processed

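The submitters' processing notes name Agilent Feature Extraction, in version 10.7.3.1, as the tool that read the scans. The deposited intensity is a background-subtracted, detrended processed signal, not scaled between arrays, with probe positions on mm9, per the file headers. Other deposited columns hold flags for outlier and background calls. A deposited value table served as an alternative. By its values, 4 of its columns (Ctrl1 and M1 to M3, medians 195 to 246) hold linear signal intensity and 5 (medians -4.03 to -3.39) were deposited as log2 values with the 75th percentile near 0. The linear columns were put on the log2 scale and all were scaled to the 75th percentile. No header or label states how the authors scaled it. In it, 6 columns matched their own scanner file at 99.2% to 99.6% of probes (within 0.001), the columns M1 and M2 matched each other's file, and the column T2 matched none.

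Control and outlier spots (147 to 299 per array) were left out and spots of a probe averaged. No spot was saturated. The array's 75th percentile of log2 signal was subtracted. Of 55681 probes, 26762 were named through RefSeq, 5874 by the array's own names, and 23045 remained unnamed. A gene was represented by its brightest probe and tested where every array of some group had that probe well above background. Group means over 9 arrays were fitted with limma 3.58.1 in R 4.3.3 (lmFit, eBayes) and adjusted by Benjamini-Hochberg. The procedure was tested on simulated data. For a gene below background on a whole group, the bound ("at least N-fold") sets the brighter mean against the higher of its own dim signal and the lowest signal well above background on each array. The number of arrays limits the precision.

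Between T and Ctrl arrays of the same number, deviations from the group means correlated at 0.55, 0.12 and 0.37 for the numbers 1 to 3. Arrays of unequal number were not compared, so these values do not establish a pairing. The labels name no pairing, and the same correlations of M with Ctrl or T were -0.27 to 0.03. Members, gene lists and motifs were chosen with earlier results of these data known. All 10 genes and their probes are named. From each list, the called genes with the largest differences were eligible, up to 4 per comparison. For the 3 genes with the largest differences, the 3 most correlated genes are named. Some named genes fall outside this rule and were chosen after their values were seen. They are Cd74, H2-Ab1, H2-Oa, Ciita, Ifi30, Lgmn, Cst3, Cstb, Serpina3g, Gzmc, Cd22, Mpo, Igf2r, Neurl2, Pltp and the markers not above background.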

Additional observations from a re-analysis of the deposited data

How the results depend on the processing

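Each cathepsin result was recomputed with 1 choice changed at a time, except for 1 alternative that combined the replicate block with a fit of T and Ctrl only. Of the single-gene results under these alternatives, 517 kept their side of the threshold, 11 lost a call, 11 gained one and 1 reversed. The 517 include changes of sign where neither value passed, such as Ctss in T minus Ctrl (-0.20 here, 0.22 with median scaling). The reversal was Ctsa in T minus Ctrl, at 0.67 with the mean of its probes. Ctsh kept its calls against Ctrl in both T (1.42 to 2.51) and M (3.53 to 4.81) in every setting run. The number of cathepsin genes higher in T minus Ctrl was 1 here and 2 after quantile normalization or with probe means. In M minus Ctrl it was 2 here, 4 after quantile normalization, 1 with the deposited value table and 1 with M1 and M3 left out. In M minus T it was 3 here and 0 with the deposited table. The number lower in M minus T was 0 here and 1 with probe means (Ctsa), and in T minus Ctrl 1 (Ctsz) with the replicate block and only T and Ctrl in the fit, an alternative chosen after seeing the data, as was leaving out M1 and M3, which leaves 1 M array, assumed to vary like the other groups. The replicate block over all 9 arrays left all counts at 1, 2 and 3 higher and 0 lower and changed no other call. Leaving out 1 array at a time gave 1 to 1 higher and 0 to 1 lower in T minus Ctrl (1 without Ctrl1, Ctsc, and without T1, Ctsz), 2 to 3 and 0 to 0 in M minus Ctrl, and 2 to 3 and 0 to 1 in M minus T (1 without M2, Ctsl). The cause was not tested, apart from the probe means, whose second Ctsa probe has the other sign. Over all genes, counts moved most for M minus Ctrl, from 2234 higher and 2029 lower to 1421 and 800 with only these groups in the fit, 1325 and 725 with the deposited table, 742 and 149 without M1 and M3, and 1357 to 3983 and 503 to 3860 without 1 array. In M minus T, 2675 and 1973 became 752 and 656 with the deposited table, 1338 and 1032 without M1 and M3, and 1554 to 2369 and 1318 to 1734 without 1 array. In T minus Ctrl, 3209 and 4956 became 2315 to 4271 and 3178 to 5464 without 1 array. Without a filter on dim probes, 3962 were higher in M minus Ctrl and 5198 in M minus T. Taken per probe, T minus Ctrl had 5934 higher and 12623 lower, M minus Ctrl 4040 lower, and M minus T 5052 higher and 4056 lower. Slide as a fixed or random block could not be fitted, since T lies alone on its slide and no group spans both, and those alternatives were not run.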

Other observations

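The arrays' 75th percentiles ran from 11.07 to 11.86 on the log2 scale. The unscaled signal of Ctsa read 89677 to 115640 over the 9 arrays, a ratio of 1.29 between the extremes. That ratio was 1.53 for Ctsz, 1.63 for Ctsb, 1.67 for Ctsd, 1.96 for Ctsl and 2.44 for Ctss. The saturation limit was 777605 or more on every array. The spread between arrays of a group was 0.12 (log2 SD) for Ctsa before scaling and 0.26 after, and 0.09 and 0.32 for Ctsz, whereas for Ctsc it was 0.50 before and 0.26 after. Scaling lowered the spread for 5 genes (Ctsc, Ctse, Ctsf, Ctsh and Ctss) and raised it for Ctsa, Ctsb, Ctsd, Ctsl and Ctsz. Within M, M2 was the highest array for 8 of 10 cathepsin genes, and within T, T1 for 7 of 10, and each has the lowest 75th percentile of its group. In Ctrl the lowest 75th percentile was that of Ctrl1, highest for 4 of 10, while Ctrl3 was highest for 6. Whether the scaling of bright probes moves their differences between groups was not tested beyond the scalings above.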
